A study of Mus musculus with 2 samples.

Results

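The fibroblast growth factor (FGF) pathway of the limb bud is described here by 10 genes of the 23157 in the deposited table. They are the ligand genes Fgf8, Fgf9 and Fgf10, the receptor genes Fgfr1, Fgfr2 and Fgfr3, and the target and feedback genes Dusp6, Spry2, Spry4 and Etv4. The genes were chosen by symbol, by a rule that uses no measured value but was set with earlier results of these data known, and all 10 were found, with 58 of the 64053 transcripts listed. Each passed the minimum used for counts over genes, which was 10 normalized reads as the mean of both libraries. None of the 10 lies on chromosome 2, which carries the HoxD cluster and the inversion.

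The RNA came from distal forelimbs, the future hand and digits, of mouse embryos of strain C57Bl6CBAF1 at E12.5, a stage of digit formation. There was 1 poly(A)-selected RNA-seq library from wild-type embryos and 1 from embryos with the HoxD Inv(TpSB1-Itga6) allele, in which 2.4 Mb of chromosome 2 are inverted so that regulatory islands are moved away from the Hoxd genes. Each library was made from a pool, given in the labels as 3 pairs of forelimbs, and by the study's methods the inversion embryos were homozygous. As each genotype has 1 library, replicate error is unknown for every difference below, and a difference between genotypes cannot be told apart from one between pools.

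The wild-type library held 9280660 reads and the inversion library 9466154, recovered as whole reads from the deposited values. A normalized read is a read divided by the size factor of its library. The log2 ratio is that of inversion over wild type after addition of 1 normalized read, which understates the difference of genes with few reads. Its 95% interval was carried over from the exact Clopper-Pearson interval of the share that the inversion library has in all reads of a gene, and covers counting error between these 2 libraries only. The pools differed in embryo sex: Xist, transcribed from the inactive X chromosome, had 2607 reads in the wild-type and 13 in the inversion library, and Ddx3y, on the Y chromosome, had 282 and 790. Sex and genotype therefore cannot be told apart in any of the values below. The limb mesenchyme marker Prrx1 had 3857 and 3913 reads and the ectoderm marker Krt5 had 1728 and 1520, so that both tissues of the limb bud were present in both libraries.

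FGFs are secreted proteins that bind receptor tyrosine kinases together with heparan sulfate. In the limb bud, Fgf8 and Fgf9 are made in the ectoderm, with Fgf8 restricted to the apical ridge, and act on the mesenchyme beneath, whereas Fgf10 is made in the mesenchyme and acts on the ectoderm. Bound receptors start the RAS-ERK cascade, which raises the transcription of ETS factors such as Etv4 and of inhibitors of the same cascade: Dusp6 encodes a phosphatase that inactivates ERK, and the Sprouty genes Spry2 and Spry4 encode antagonists of receptor signalling. Transcripts of these targets are widely used as a reading of FGF activity.

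The answer of a receptor to a ligand depends on an alternative exon that codes for part of the third immunoglobulin-like domain. The IIIb form, typical of epithelia, binds FGF10 in the case of Fgfr2, whereas the IIIc form, typical of mesenchyme, binds the ligands of the ridge. Both exons of Fgfr3, the gene with the largest difference below, and the IIIb exon of Fgfr2, the receptor of FGF10, are shown because reads were split by them. They were read from GRCm38 at chr5:33731281-33731431 and chr5:33732117-33732261 on the plus strand and at chr7:130199758-130199905 on the minus strand, and are written from 5′ to 3′ on the strand of the gene. Capitals mark runs of at least 6 bases that are identical, without a gap, to the aligned bases of the Fgfr3 IIIb exon, which itself is in lower case.
Fgfr3 IIIb: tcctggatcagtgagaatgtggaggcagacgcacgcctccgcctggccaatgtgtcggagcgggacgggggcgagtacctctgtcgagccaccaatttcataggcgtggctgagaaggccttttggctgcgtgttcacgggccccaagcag
Fgfr3 IIIc: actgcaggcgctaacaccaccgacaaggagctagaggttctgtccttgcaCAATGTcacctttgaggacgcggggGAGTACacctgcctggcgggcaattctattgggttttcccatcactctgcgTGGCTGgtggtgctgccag
Fgfr2 IIIb: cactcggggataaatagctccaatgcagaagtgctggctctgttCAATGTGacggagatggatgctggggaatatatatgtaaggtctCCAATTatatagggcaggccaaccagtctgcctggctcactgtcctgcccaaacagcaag
The IIIb exon of 151 bases and the IIIc exon of 145 bases of Fgfr3 were 49.7% identical, and the IIIb exon of Fgfr2, of 148 bases, was 51.0% identical to that of Fgfr3. The IIIb exon of Fgfr3 was thus nearly as far from the same form of Fgfr2 as from the other form of its own gene.

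None of the 10 genes differed by 2-fold or more between the libraries. Fgfr3 and Fgfr1 had more reads in the inversion library and Fgf10 and Etv4 fewer, each by less than 1.5-fold and by more than counting error, whereas the intervals of Fgf8, Fgf9, Fgfr2, Dusp6, Spry2 and Spry4 held 0. Among the 16756 genes that passed the minimum, 3.99% were higher in the inversion library by 2-fold or more, and 0.483% were lower by as much. The median log2 ratio was -0.05 over the 10 genes and -0.02 over all genes. The intervals lay above 0 for 2 of the 10 genes and below 0 for 2, against 16.7% and 13.0% of all genes. Both shares of the 10 genes are near this background, and an interval off 0 is reached by smaller differences in genes with more reads.

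**Figure D1:**
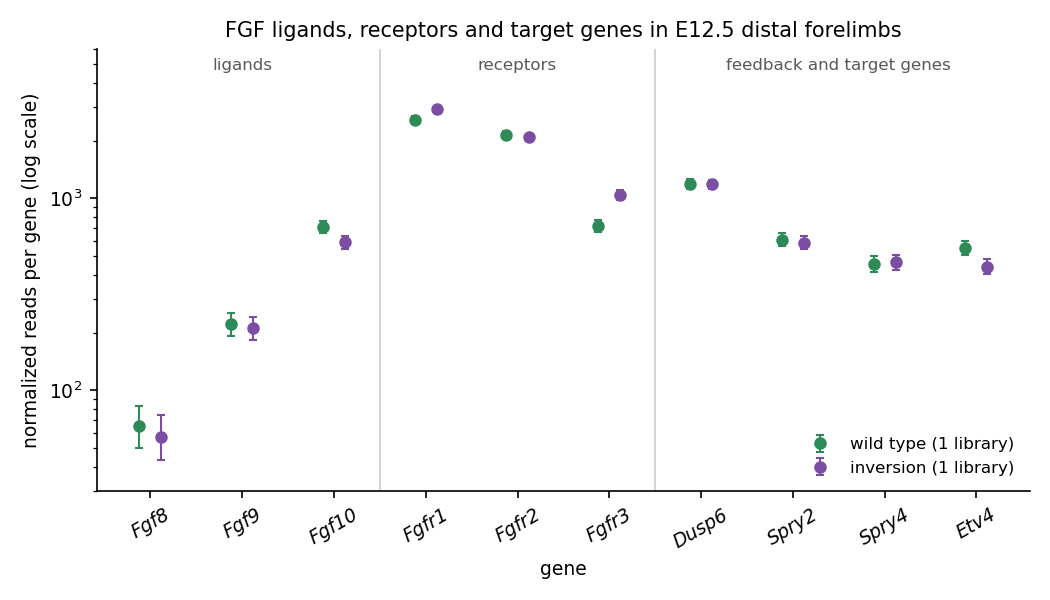
Normalized reads per gene (log scale) of the 10 genes in the wild-type library (green) and the inversion library (purple), 1 library each, with 95% Poisson counting intervals as bars. Fgfr3 stands higher and Fgf10 and Etv4 stand lower in the inversion library, while the points of Dusp6, at 1194 and 1183, lie side by side.

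Fgf8, the signal of the apical ridge, lies on chromosome 19 between 45736798 and 45742915 (minus strand; positions of genes are those of GENCODE M21 on GRCm38). It had 64 wild-type and 58 inversion reads, which corresponds to 64.8 and 57.3 normalized reads. The log2 ratio was -0.18 with an interval from -0.72 to 0.36, so that counting error leaves room for a fold anywhere from 0.609 to 1.28. All reads of Fgf8 fell on 6 protein-coding transcripts, none with more than 20 reads in a library. At this depth a shift among its splice forms was not detectable.

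Fgf9, which is made in the ectoderm of the limb, lies on chromosome 14 between 58070547 and 58112720 (plus strand). It had 218 reads in the wild-type and 213 in the inversion library, or 221 and 210 normalized reads, and a log2 ratio of -0.07 (interval -0.35 to 0.21). The sum of the gene was thus close to equal, but its 2 main coding transcripts lay on opposite sides of 0. The longer ENSMUST00000165526 (3593 bases) had 114 reads in the wild-type and 141 in the inversion library, which was 52.3% (95% exact binomial interval 45.4 to 59.1%) and 66.2% (59.4 to 72.5%) of the gene. Its log2 ratio was 0.27 (-0.10 to 0.64), an interval that held 0. The shorter ENSMUST00000022545 (1593 bases) had 100 and 70 reads, with a log2 ratio of -0.54 (-1.01 to -0.10). Both are annotated as protein coding and differ at their first exon and in the length of the last exon, and the assignment of a read in the exons they share is an estimate of the authors' pipeline.

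Fgf10, the mesenchymal ligand, lies on chromosome 13 between 118669791 and 118792115 (plus strand). It was the most abundant of the 3 ligands, with 701 wild-type and 599 inversion reads, or 710 and 592 normalized reads. The inversion library was lower, with a log2 ratio of -0.26 (interval -0.42 to -0.10), and 8.92% of all genes had a lower ratio than Fgf10. Its coding transcript accounted for most reads, with 653 and 555 and a log2 ratio of -0.27, and Gm16263, an antisense gene that overlaps Fgf10, had 7 and 9 reads.

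**Figure D2:**
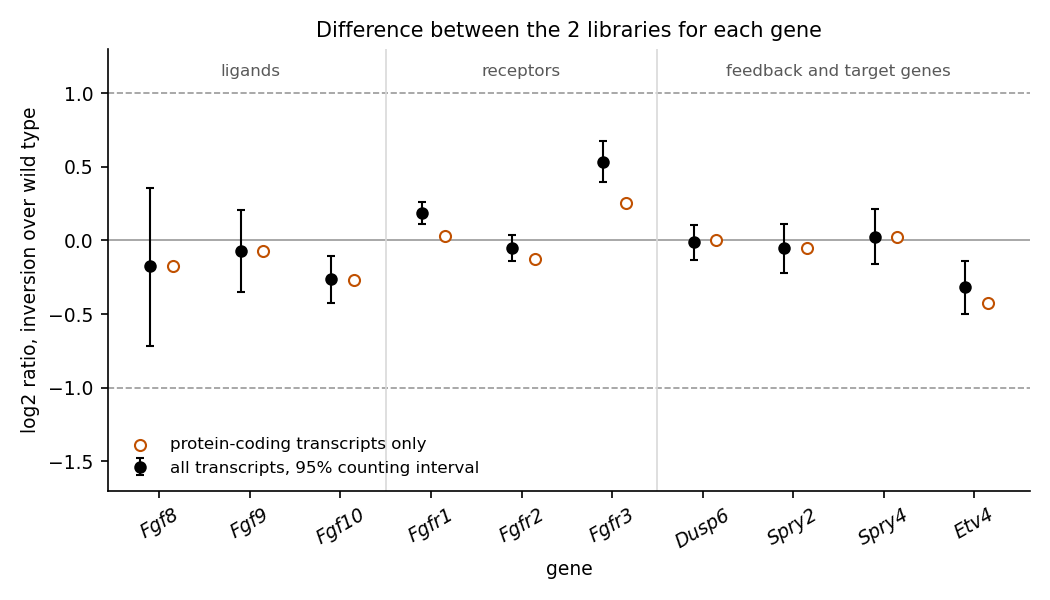
Log2 ratio of inversion over wild type for each of the 10 genes, with all transcripts summed (black, bars are 95% counting intervals) and with protein-coding transcripts only (open circles); dashed lines mark 2-fold. Every value lies between the dashed lines, and Fgfr3 drops from 0.54 to 0.26 and Fgfr1 from 0.19 to 0.03 when only coding transcripts are counted.

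Of the receptors, Fgfr1 lies on chromosome 8 between 25513654 and 25575718 (plus strand) and is a receptor of the limb mesenchyme. It had 2548 wild-type and 2972 inversion reads, or 2580 and 2935 normalized reads, and a log2 ratio of 0.19 (0.11 to 0.26). The difference lay outside its coding transcripts. These had 1437 and 1507 reads and a log2 ratio of 0.03 (-0.07 to 0.14), whereas the 4 transcripts annotated with a retained intron had 726 and 967 reads and a ratio of 0.38 (0.24 to 0.52). Transcripts annotated for nonsense-mediated decay had 235 and 309 reads, a ratio of 0.36 (0.11 to 0.61). Retained-intron transcripts made up 28.5% of the wild-type reads of Fgfr1 and 32.5% of the inversion reads. Gm16159, antisense to Fgfr1, had 18 and 20 reads.

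Fgfr2, whose IIIb form receives FGF10 in the ectoderm, lies on chromosome 7 between 130162451 and 130266263 (minus strand; 1 transcript model of GENCODE M21 that runs far past the others was left out of this span). It had 2127 reads in the wild-type and 2107 in the inversion library, or 2154 and 2081 normalized reads, and a log2 ratio of -0.05 (-0.14 to 0.04). Its coding transcripts had 1298 and 1219 reads, a ratio of -0.13 (-0.24 to -0.01), and its 7 retained-intron transcripts 519 and 551, a ratio of 0.05 (-0.13 to 0.23). The sum of the gene was close to equal, with the interval of its coding class just below 0.

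Fgfr3, known as a regulator of cartilage growth, lies on chromosome 5 between 33721674 and 33737068 (plus strand) and had the largest difference of the 10 genes. It had 711 reads in the wild-type and 1057 in the inversion library, or 720 and 1044 normalized reads. The log2 ratio was 0.54 (0.40 to 0.68), a 1.45-fold higher level (1.32 to 1.60), and 89.6% of all genes had a lower ratio. The difference was unequal between its transcript classes. Coding transcripts had 607 reads in the wild-type and 744 in the inversion library, with a ratio of 0.26 (0.10 to 0.41). Retained-intron transcripts had 104 and 313 reads, a log2 ratio of 1.54 (1.23 to 1.89), and made up 14.6% (12.1 to 17.4%) of the gene's wild-type reads and 29.6% (26.9 to 32.5%) of its inversion reads.

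Most of the retained-intron difference was on a single transcript. ENSMUST00000134610, a retained-intron transcript of 3316 bases, had 40 wild-type and 189 inversion reads, a log2 ratio of 2.18 (1.71 to 2.73). ENSMUST00000152661, of 732 bases, had 8 and 42 reads and a ratio of 2.22 (1.25 to 3.66). The other 2 retained-intron transcripts of Fgfr3, with 30 and 47 and with 26 and 35 reads, had intervals that held 0. The 2 main coding transcripts, ENSMUST00000067150 and ENSMUST00000164207, had 313 and 384 and 294 and 347 reads, ratios of 0.26 and 0.20. The model of a retained-intron transcript shares exons with the coding ones, so that the split of reads between them is again an estimate of the pipeline.

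**Figure D3:**
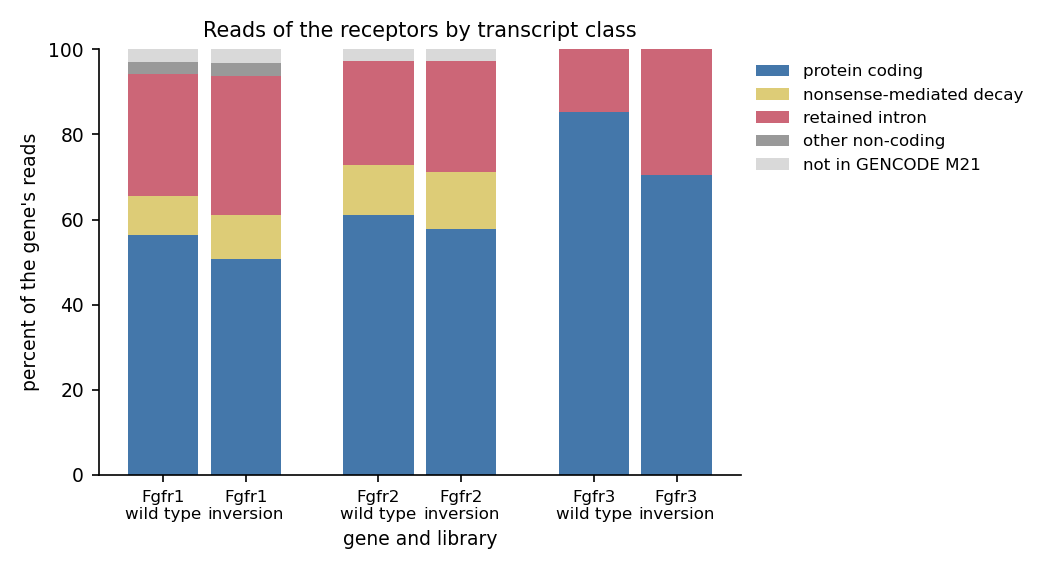
Percent of the reads of Fgfr1, Fgfr2 and Fgfr3 by transcript class in the wild-type and the inversion library, 1 library each. The retained-intron part of Fgfr3 is 14.6% in the wild-type and 29.6% in the inversion library, and that of Fgfr2 is 24.4% and 26.2%.

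Retained-intron transcripts also differed over the whole table, and this has to be read beside the receptor values. Over the 7715 such transcripts that passed the minimum, the median log2 ratio was 0.20, against -0.03 over 23662 protein-coding transcripts. They took 5.99% of all reads in the wild-type and 7.12% in the inversion library. Of the 10 genes, Fgfr1, Fgfr2 and Fgfr3 were those with transcripts of this class, 15 in all, of which 12 had a ratio above 0. With a median of 0.20, most retained-intron transcripts of the whole table had a ratio above 0 as well. At least 2-fold higher were 2 of the 15, both of Fgfr3, and none was 2-fold lower, against 13.6% and 0.907% of all retained-intron transcripts. Over all classes, 49 of the 58 transcripts passed the minimum, with the same 2 at least 2-fold higher and 1, a non-coding transcript of Etv4 with 21 and 8 reads, at least 2-fold lower, against 6.66% and 2.19% of all transcripts. The part of this difference over the whole table in the receptor values was not tested.

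**Figure D4:**
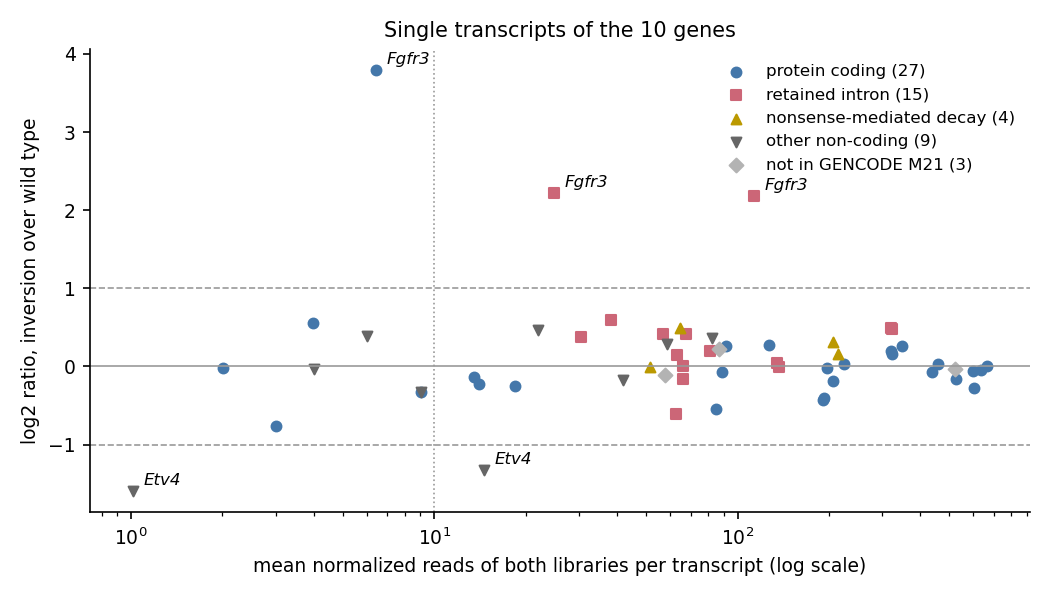
Log2 ratio of inversion over wild type against the mean normalized reads of both libraries (log scale) for each of the 58 transcripts of the 10 genes, by transcript class; dashed lines mark 2-fold and the dotted line a mean of 10. The 2 retained-intron transcripts of Fgfr3 stand apart at 2.18 and 2.22, and the coding transcript of Fgfr3 above them had 0 and 13 reads.

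Reads on coding transcripts whose models hold either alternative exon were summed for each receptor form. These are reads over whole transcripts, without correction for length, and their placement in shared exons is an estimate of the pipeline. They therefore allow a comparison of the libraries rather than a measure of each form. ENSMUST00000124096 of Fgfr2, with 443 and 433 reads, and ENSMUST00000124228 of Fgfr1, with 82 and 101, are coding but were counted for neither form. Fgfr2 had 90 wild-type and 88 inversion reads on its IIIb transcript, a log2 ratio of -0.07 (-0.51 to 0.37), and 765 and 698 on its IIIc transcripts, a ratio of -0.17 (-0.32 to -0.02). IIIb thus made up 10.5% (8.55 to 12.8%) and 11.2% (9.08 to 13.6%) of these reads, and the intervals overlapped over most of their length. Fgfr1 was as even, with 197 and 199 reads for IIIb and 1158 and 1207 for IIIc, so that IIIb made up 14.5% and 14.2%.

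Fgfr3 had nearly all of its reads counted for either form placed on IIIc transcripts in both libraries. Its IIIc transcripts had 607 and 731 reads, a log2 ratio of 0.23 (0.07 to 0.39). Its IIIb transcript, ENSMUST00000114411, had 0 reads in the wild-type and 13 in the inversion library. The 13 were 1.75% (0.934 to 2.97%) of the reads counted for either form. For the 0, the limit on this share of reads was 0.494% by 3 reads or 0.606% by the exact interval. As these reads fall over whole transcripts, it is not a limit on the share of the form itself. Few reads fall on an exon of 151 bases, and the rest of the transcript is shared with the other forms. Both values therefore rest on how the pipeline placed few reads.

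The target and feedback genes Dusp6, Spry2 and Spry4 were close to equal. Dusp6, the ERK phosphatase, lies on chromosome 10 between 99263231 and 99267489 (plus strand) and had 1179 reads in the wild-type and 1198 in the inversion library. The log2 ratio was -0.01 (-0.13 to 0.10), which on the linear scale is a fold of 0.991 (0.914 to 1.07). Of its 2 transcripts, the coding one had 657 and 674 reads and 1 that is not in GENCODE M21 had 522 and 524.

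Spry2 lies on chromosome 14 between 105891947 and 105896819 (minus strand) and Spry4 on chromosome 18 between 38586247 and 38601415 (minus strand), each with 1 transcript. Spry2 had 603 wild-type and 596 inversion reads, a log2 ratio of -0.05 (-0.22 to 0.11). Spry4 had 450 and 470 reads, a ratio of 0.03 (-0.16 to 0.22). The 2 Sprouty genes therefore lay on either side of 0, both within counting error.

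Etv4, an ETS transcription factor of the PEA3 group, lies on chromosome 11 between 101769742 and 101785371 (minus strand) and was the lowest of the 10 genes. It had 544 reads in the wild-type and 447 in the inversion library, or 551 and 441 normalized reads, a log2 ratio of -0.32 (-0.50 to -0.14), and 6.33% of all genes had a lower ratio. Its coding transcripts were lower as a class. Their reads were 436 and 333, a ratio of -0.42 (-0.64 to -0.22), with 218 and 165 reads for ENSMUST00000107176 and 218 and 168 for ENSMUST00000164750. The 6 non-coding transcripts together had 108 and 114 reads, a ratio of 0.04 (-0.35 to 0.44), and this interval overlaps that of the coding class. They were unequal: ENSMUST00000129160 had 21 and 8 reads, a ratio of -1.32 (-2.81 to -0.20). ENSMUST00000132040, with the most reads of the 6, had 52 and 65, a ratio of 0.28 (-0.26 to 0.84). The split of reads between overlapping transcripts is again an estimate of the pipeline. The intervals of the other 3 target genes among the 10 held 0.

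Levels of different genes were compared per kilobase of transcript, with lengths weighted by the reads of each transcript. Fgfr1 and Fgfr2 were highest in the wild-type library, with 784 and 769 normalized reads per kb, followed by Dusp6 with 427. For Dusp6, 56.0% of the reads had a length, and that length was used for all of them. Spry2 with 293 and Etv4 with 275 came next. Fgfr3 with 194 and Fgf10 with 183 were alike, and Spry4 with 95.8, Fgf9 with 80.0 and Fgf8 with 63.0 were lowest. Counting intervals of neighbours in this order overlapped between Fgfr1 and Fgfr2, Spry2 and Etv4, Fgfr3 and Fgf10, Spry4 and Fgf9, and Fgf9 and Fgf8. In the inversion library Fgfr3, at 282, stood above Etv4, at 220, and level with Spry2, at 282. Fgf9, at 76.3, and Fgf8, at 55.7, were again lowest. Bulk RNA gives these levels over all cells, so that fewer cells of a type and less RNA per cell cannot be told apart. This holds for the ridge gene Fgf8 as for the others.

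The other genes of the pathway were taken as 4 lists: other ligands, other receptors and binding proteins, other feedback genes and targets, and the RAS-ERK cascade. Of 80 genes listed, 78 were found and 66 passed the minimum, and none of the 66 was at least 2-fold higher or lower. Intervals lay above 0 for 7 genes (10.6%) and below 0 for 18 (27.3%), against 16.7% and 13.0% of all genes, with a median log2 ratio of -0.08. A further list of genes that act with FGFs in the limb had 14 genes found and 13 that passed. Its intervals lay above 0 for 2 genes (15.4%) and below 0 for 3 (23.1%), with a median of -0.10. Fgf20, Spry3 and 1 gene of the limb list were not analysed here.

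Among the other ligands, 8 of 18 passed the minimum, with a median log2 ratio of -0.29 and 1 interval off 0, but this median was 0.065 over all 18 with no minimum and -0.046 over the 4 with a mean of at least 100. The 4 with the most reads were Fgf13, Fgf12, Fgf11 and Fgf18, of which the first 3 encode FGF homologous factors that stay inside the cell. Fgf12 had 280 reads in the wild-type and 149 in the inversion library, a ratio of -0.94 (-1.24 to -0.65), and was the furthest from 0 of the 66 genes. Fgf13 had 389 and 399 reads, a ratio of 0.00 (-0.20 to 0.21). Fgf11 had 147 and 165 and Fgf18, which is secreted, 153 and 147, and both intervals held 0. The other ridge ligands were near the limit of detection. Fgf4 had 1 and 3 reads and Fgf17 5 and 5, so that no comparison was possible at this depth, and these 2 were named after their values were seen.

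The receptors and binding proteins had 20 of 22 genes past the minimum, 2 intervals above 0 (10%) and 8 below (40%), against 16.7% and 13.0% of all genes, and a median of -0.09. Most are enzymes or carriers of heparan sulfate, the co-receptor of FGFs. The 4 with the most reads had ratios close to 0, of which the intervals of Sulf1 and Ndst1 lay below 0. Sulf2 had 3848 and 3866 reads (log2 ratio -0.03), Gpc3 3064 and 3064 (-0.04), Sulf1 2756 and 2667 (-0.08) and Ndst1 2249 and 2149 (-0.10). The other 6 below 0, from -0.16 to -0.58, were Hs6st1, Ext1, Hs2st1, Sdc2, Flrt1 and Fgfbp1, which had 63 and 43 reads. The 2 with an interval above 0 were Flrt2 with 1911 and 2364 reads (0.27, interval 0.18 to 0.36) and Fgfr4, a receptor known from muscle precursors, with 93 and 142 (0.57, interval 0.19 to 0.97), and these 8 genes were named after their values were seen.

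The other feedback genes and targets had 16 genes past the minimum, 1 interval above 0 (6.25%) and 6 below (37.5%), against 16.7% and 13.0% of all genes, and a median of -0.12. Il17rd, a membrane antagonist of FGF receptors, had 1949 and 1896 reads, a ratio of -0.08 (-0.17 to 0.02). Ccnd1, encoding cyclin D1, had 1584 and 1486, a ratio of -0.13 (-0.23 to -0.03). Spred1 and Dusp7, inhibitors of the cascade, had ratios of -0.10 and -0.09 and intervals that held 0. The other members of the PEA3 group, looked at because of Etv4 and after their values were seen, were lower as well. Etv5 had 780 reads in the wild-type and 590 in the inversion library, a ratio of -0.44 (-0.60 to -0.28), and Etv1 275 and 236, a ratio of -0.26 (-0.51 to 0.00, the upper bound just under 0). Dusp4, likewise named after its values were seen, had 316 and 218 reads, a ratio of -0.57 (-0.83 to -0.32), whereas Spry1 had 764 and 791, a ratio of 0.01 (-0.13 to 0.16). Spred3 was the 1 gene with an interval above 0, with 232 and 327 reads, and it and Spry1 were also named after their values were seen.

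The RAS-ERK cascade had all 22 genes past the minimum, 4 intervals above 0 (18.2%) and 3 below (13.6%). Both shares are near the 16.7% and 13.0% of all genes. The median was -0.02, the same as that of all genes. Plcg1 had 3098 and 3521 reads (log2 ratio 0.15, and 0.05 over coding transcripts only), and Ptpn11, encoding the phosphatase SHP2, had 2128 and 2048 (-0.09). The others with an interval above 0, named after their values were seen, were Araf, Braf and Frs3. Araf, on the X chromosome, had 723 reads in the wild-type and 1191 in the inversion library, a ratio of 0.68 (0.55 to 0.82), and 0.70 over its coding transcripts. Braf and Frs3 had ratios of 0.27 and 0.55. Of the other X-linked genes in the pathway lists, Fgf13, Fgf16, Gpc3 and Hs6st2 had intervals that held 0. That of Dusp9 lay below 0 (ratio -0.20), and it, Fgf16 and Hs6st2 were named after their values were seen.

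In the limb list, Lhx2 and Lhx9, which mediate the answer of the distal mesenchyme to ridge FGFs, had 1052 and 801 reads (log2 ratio -0.43, interval -0.56 to -0.30) and 1942 and 1873 reads (-0.09, -0.18 to 0.00). Bmp7 had 1259 and 1029 reads (-0.33, -0.45 to -0.21), and Tbx5, which acts upstream of Fgf10 at the onset of the forelimb, 1663 and 1959 (0.20, 0.11 to 0.30). Fgf10 and Tbx5 thus lay on opposite sides of 0. Jag2, the other gene of this list with an interval above 0, had 546 and 633 reads (0.18, 0.01 to 0.35) and was named after its values were seen. Lhx2 and Bmp7 are on chromosome 2, as is Bmp2, the remaining gene with an interval below 0, with 716 and 561 reads (-0.39, -0.55 to -0.23). Grem1, also on chromosome 2, had 180 and 206 (0.16, -0.14 to 0.46), and it and Bmp2 were named after their values were seen. Of the other pathway lists, Plcg1, with an interval above 0, is on this chromosome too. So are Fgf7, Flrt3, Ext2, Sulf2, Sdc4 and Spred1, whose intervals held 0. Of these, Fgf7, Flrt3, Ext2 and Sdc4 were named after their values were seen. The part of the inversion in these values was not tested.

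**Figure D5:**
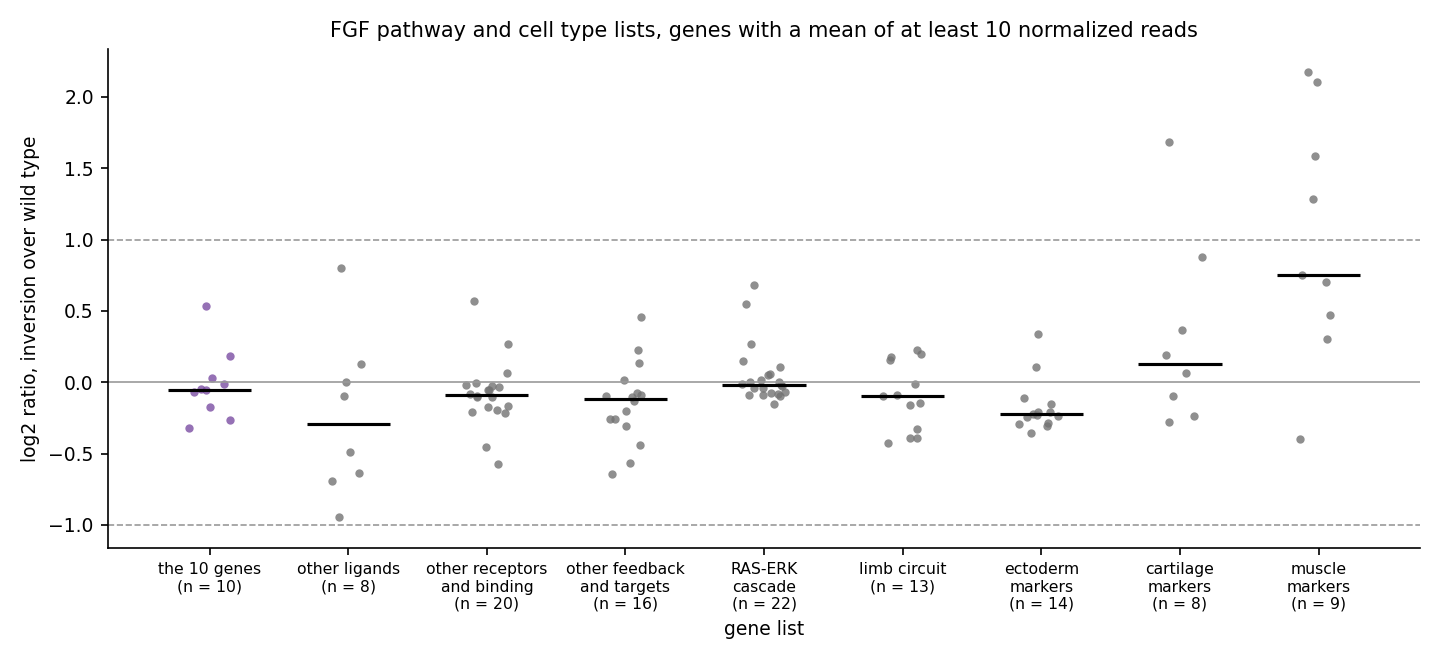
Log2 ratio of inversion over wild type for each gene that passed the minimum of 10 normalized reads, in the 10 genes (purple), the pathway lists and 3 lists of cell type markers (grey), with the median of each list as a black bar; dashed lines mark 2-fold. The FGF lists lie between the dashed lines, while 4 of 9 muscle markers and 1 of 8 cartilage markers lie above them. Over all genes that passed the minimum, 3.99% were higher by 2-fold or more.

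Cell type markers also differed between the libraries. The 5 proximal limb markers had a median log2 ratio of -0.29, but their summed normalized reads were 1389 and 1528. Among them, Shox2, named after its values were seen, had 376 and 724 reads. Medians were -0.23 for red cell markers, -0.08 for endothelium, 0.31 for Schwann cells and neural crest and 0.03 for macrophages. For the ectoderm, a source of Fgf8 and Fgf9, 12 of 14 markers had a ratio below 0, against 8947 of all 16756 genes. Intervals lay below 0 for 8 of the markers (57.1%, against 13.0% of all genes) and above 0 for 1 (7.14%, against 16.7%). The median of the markers was -0.22, and their summed normalized reads were 7999 in the wild-type and 6963 in the inversion library. Esrp1, a splicing factor that promotes the IIIb form, was among them with 580 and 481 reads. The 2 markers with a ratio above 0 were Esrp2 and En1, named after their values were seen. Esrp2 had 269 and 297 reads, a ratio of 0.11 (-0.14 to 0.35). En1 had 132 and 171 reads, a ratio of 0.34 (0.0013 to 0.68). None of the 14 was at 0. The mesenchyme list, for the source of Fgf10, had a median of -0.02 over 7 genes and summed normalized reads of 14408 and 13793. It includes Hoxd13, a gene of the HoxD cluster, and without it the sums were 12116 and 12289 and the median 0.02, an alternative chosen after seeing the data. The part of tissue composition in the values of Fgf8 and Fgf10 was not tested.

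Cartilage markers, beside Fgfr3, were unequal. Of 8 genes, 4 had intervals above 0 and 2 below, against 16.7% and 13.0% of all genes. Their median was 0.13, and their summed normalized reads were 16347 and 18827. Matn1 had 100 reads in the wild-type and 331 in the inversion library, Acan 440 and 828, and Col2a1 6296 and 8320, whereas Sox9 had 1823 and 1751, and Sox6, with 1821 and 1581, and Hapln1, with 768 and 648, were the 2 with intervals below 0. Muscle markers, beside Fgfr4, had a ratio above 0 for 8 of 9 genes, against 7809 of all 16756 genes. Intervals lay above 0 for 6 of them (66.7%, against 16.7% of all genes) and below 0 for none. The median was 0.75 and the summed normalized reads were 960 and 2014. None of the markers of either list was at 0 in either library, and the part of cartilage or muscle cells in the values of Fgfr3 and Fgfr4 was not tested.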

How the data were processed

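Strand-specific, poly(A)-selected RNA-seq of E12.5 distal forelimbs was used, 1 wild-type and 1 inversion library. The authors mapped single-end reads of 100 bases to NCBIM37 (mm9) and placed them on transcripts in the HTSstation pipeline; the submitters' processing notes name Bowtie2. The deposited signal columns hold reads per transcript divided by a size factor, with 0.5 for no reads, and did not follow the RPKM unit of the methods. Above 0.5, 100% of values were whole multiples, within 0.01, of 1.0126 normalized reads per read in the wild-type and 0.9876 in the inversion library. The deposited table also gives, for each transcript, the authors' own comparison (fold change and its log2, p-value, adjusted p-value), which was not used. How reads that fit several transcripts were counted, and whether counting used the strand, is not given in the sources used here.

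Gene values are sums over transcripts with the same symbol and chromosome, and log2 ratios used a pseudocount of 1. Genes or transcripts with a mean of at least 10 were counted at a 2-fold threshold or by exact 95% counting intervals, which cover counting error only. A two-sided exact binomial test of recovered reads, with Benjamini-Hochberg adjustment at 0.05, was an alternative; it called 2068 genes higher and 1318 lower and compares libraries, not genotypes. A share at 0 reads was limited by 3 reads. Added after seeing the data were the limb mesenchyme markers without Hoxd13. The other alternatives were scaling by total or upper quartile, pseudocounts of 0.1 and 5, other minimum means, thresholds of 1.5-fold and 4-fold, the highest transcript, and protein-coding transcripts only. Types, lengths, positions and exon sequences were those of GENCODE M21 (GRCm38), a later build than the one used for mapping; 88.1% of transcripts were found there by identifier, and coordinates were not converted between builds. The members and lists were chosen with earlier results of these data known. The genes named were the 10 members and, per pathway list, any past 2-fold and the 4 with the highest mean; others are said to have been chosen after their values were seen. Of the genes this rule takes in the cascade list, 2 are not reported here. Steps were tested on simulated data. Python 3.11.15 was used with biopython 1.88, scipy 1.17.1, pandas 2.3.3, numpy 2.4.6 and matplotlib 3.10.9.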

Additional observations from a re-analysis of the deposited data

How the results depend on the processing

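No paired analysis was possible because each genotype has 1 library. Of 60 values of single genes under another scaling, pseudocount or choice of transcripts, 54 stayed inside the counting interval of the value given and 4 had another sign. With the transcript of the highest mean in place of the sum, the log2 ratio was 0.27 for Fgf9, -0.047 for Fgfr1, -0.16 for Fgfr2 and 0.26 for Fgfr3, and with protein-coding transcripts only it was 0.033 for Fgfr1 and 0.26 for Fgfr3. These alternatives leave out transcripts, so their values depart from the sum where the transcripts of a gene differ from one another. None of the 10 genes was past 2-fold under any scaling, pseudocount, minimum or choice of transcripts, or past 1.5-fold, with Fgf8 left out where the minimum mean was 100. The exact binomial test called 2 of them higher and 2 lower. Over all genes, the counts of 668 higher and 81 lower became 2068 and 1318 with the binomial test, 1992 and 1089 with no minimum, 139 and 12 with a minimum mean of 100, 1577 and 341 at 1.5-fold and 113 and 13 at 4-fold, and 412 were higher with protein-coding transcripts only. Depth limits Fgf8 and the IIIb form of Fgfr3 most, and no replicate error can be given for any value.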
